A study of Mus musculus with 12 samples.

Results

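The mitochondrial protein import machinery was followed in CT26 cells, a mouse colon carcinoma line, at the level of its nuclear-encoded transcripts. Its genes were taken by symbol: those whose names begin with Timm, Tomm, Samm, Pmpc, Grpel or Chchd4, together with Dnajc15, Dnajc19, Pam16, Hspa9, Hspe1 and Hspd1. This rule found 34 genes among the 17097 with a probe set of their own on the array. Hspd1, Tomm40, Timm8a1 and Timm13 were not analysed here. RNA was measured on 12 Affymetrix expression arrays, 3 for each of 4 groups of cultured CT26 cells, for which the labels name no engineered allele. Control (CTR) cells received 1.0 g/L glucose and 10% serum, whereas cells under short-term starvation (STS) received 0.5 g/L glucose and 1% serum for 48 hours. The OXP group received oxaliplatin, a platinum drug that forms DNA adducts, in control medium, and the STS+OXP group received it in starvation medium. The sample labels give 10 µM OXP, added 24 hours after STS. The study's text gives a higher concentration for the gene expression assay and, for other assays, drug added after 48 hours of starvation. The dose and the timing on these arrays could therefore not be settled. Starvation here means low glucose and low serum together, and their effects cannot be told apart. No source used here says whether the 3 arrays of a group were separate cultures, so the p-values measure only the spread between these arrays, which may be technical.

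Most mitochondrial proteins are encoded in the nucleus, made in the cytosol and imported. Precursors bind receptors of the TOM complex, the entry gate of the outer membrane, and pass its pore. Proteins with a cleavable presequence then cross the inner membrane through the TIM23 channel, pulled by an ATP-driven motor built around the matrix Hsp70 Hspa9. Small Tim chaperones carry hydrophobic carrier proteins through the intermembrane space to the TIM22 complex, the SAM complex inserts outer membrane barrels, and the Chchd4 relay traps small cysteine-rich proteins by forming disulfides. In the matrix the processing peptidase removes the presequence, and a chaperonin with Hspe1 as its lid folds the product. Proliferating tumour cells depend on this route for enzymes of respiration and biosynthesis.

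The array values are log2 signals made with RMA, a procedure that corrects the background and makes the arrays' distributions alike, so a difference of 1 is a factor of 2 in signal. A gene was called when the limma test gave an adjusted p under 0.05 after Benjamini-Hochberg adjustment over all 17097 genes. Background was set on each array by the brightest of 22 non-specific control probe sets, and it lay between 3.21 and 3.72. The members Timm8a2 and Tomm20l did not exceed it in any group, and all others exceeded it in all 4 groups. Array OXP 1 stood apart in RNA quality, since its signal at the 3′ end of Gapdh exceeded that at the 5′ end by 3.85, compared with −0.117 to 0.284 on the other arrays. Array OXP 2 lay closer over all genes to the STS+OXP arrays (root mean square log2 difference 0.173) than to the remaining OXP arrays (0.298). The same held to a smaller degree for OXP 3 (0.242 and 0.274), while OXP 1 lay nearer its own group (0.321) than STS+OXP (0.344). The distances of OXP 2 and OXP 3 to their own group include that to OXP 1. Of 7 markers of colon epithelium, 3 exceeded background in at least 1 group, while Cdh1, Vil1, Krt18 and Krt19 did not in any. The summed unlogged signal of those 7 genes ranged from 78.5 to 85.7 on the CTR arrays and from 80.6 to 86.4 on the OXP arrays. For 5 macrophage markers, 2 of them above background in at least 1 group, the sum ranged from 43.2 to 48.0 on the CTR arrays and from 44.2 to 76.1 on the OXP arrays, and Ptprc, Lyz2 and Csf1r did not exceed background in any group. Cd68 was at 5.22, 3.07 and 4.92 on the OXP arrays, and its part in the results was not tested. The sum of 3 fibroblast markers, all above background in at least 1 group, ranged from 55.7 to 59.8 on the CTR, 67.5 to 73.6 on the STS, 66.2 to 72.2 on the OXP and 57.6 to 62.9 on the STS+OXP arrays. Within this list Dcn was called higher with OXP (1.06, adjusted p = 8.55e-06) and with STS+OXP (0.91, adjusted p = 3.77e-05) and Col1a1 with STS (0.34, adjusted p = 0.0233), and their part was not tested either.

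More import genes fell than rose under each treatment. In OXP-treated cells, 13 of the 34 fell and 4 rose against CTR, while over all genes 13.9% fell and 17.5% rose. In STS-treated cells, 9 fell and 0 rose, against 6.74% and 9.75% of all genes. In STS+OXP-treated cells, 17 fell and 0 rose, against 14.2% and 16.4% of all genes. The median log2 change of the 34 genes was −0.12 with OXP, −0.14 with STS and −0.24 with STS+OXP, whereas the median over all genes was −0.01, −0.03 and 0.00. The 3 comparisons share the CTR arrays. Whether a bulk signal fell because fewer cells carried the transcript or because each cell held less of it cannot be told apart.

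Timm50, Timm9, Tomm5, Tomm70a, Hspa9, Grpel2, Timm10 and Timm21 were called lower in all 3 comparisons with CTR. Hspe1, Chchd4, Timm23 and Dnajc19 were called lower with OXP and with STS+OXP. On their brightest probe sets, another 5 members, Dnajc15, Timm17a, Timm22, Tomm20 and Tomm22, were called lower with STS+OXP and in neither single treatment. The tests that set STS+OXP against each single treatment follow further down. In the opposite direction, Tomm7, Pam16, Tomm34 and Timm29 rose with OXP. Pmpca, Pmpcb, Samm50, Timm10b, Timm17b, Timm8b, Timmdc1, Tomm40l, Tomm6, Timm8a2 and Tomm20l were called in none of the 3.

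**Figure D1:**
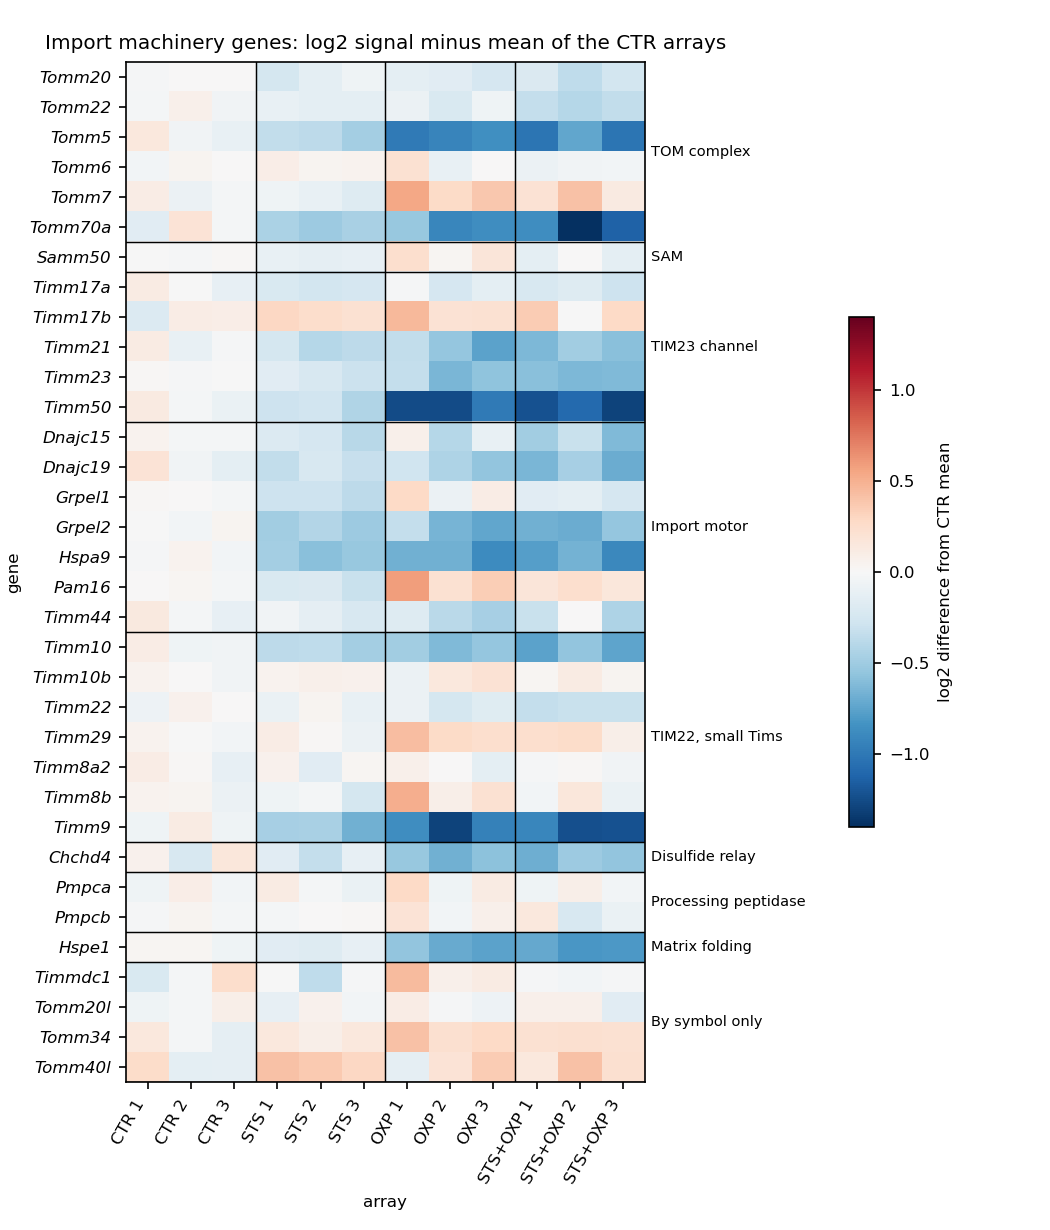
Log2 signal of the 34 import genes on each of the 12 arrays (columns) minus the mean of the 3 CTR arrays, with genes in rows by class; blue is below the CTR mean and red above it. The blue rows of Tomm5, Tomm70a, Timm50, Timm9 and Hspe1 span the OXP and STS+OXP arrays, and Tomm7 and Pam16 are red on the OXP arrays.

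The stretches before the start sites of 5 members that the results turn on are shown with short motifs of regulators known for nuclear genes of mitochondria, stress and growth. They are Tomm70a, Timm50, Timm9 and Hspe1, which were lower, and Pam16, which was higher with OXP. Each is the 250 bases before a start annotated in RefSeq on GRCm38.p6, read 5′ to 3′ in the direction of the gene, and capitals mark motif matches. Both strands were searched for the ETS site CCGGAAG (bound by GABP), the NRF1 site GCGCATG, the E-box CACGTG (bound by Myc) and the heat shock element TTCNNGAA. The Tomm70a stretch is at chr16:57121464-57121713, plus strand, that of Timm50 at chr7:28312047-28312296, minus strand, that of Timm9 at chr12:71136676-71136925, minus strand, that of Hspe1 at chr1:55087898-55088147, plus strand and that of Pam16 at chr16:4624947-4625196, minus strand. The record of the Timm9 gene reaches upstream of the start used, so the last 33 bases of its stretch lie inside the gene.
Tomm70a: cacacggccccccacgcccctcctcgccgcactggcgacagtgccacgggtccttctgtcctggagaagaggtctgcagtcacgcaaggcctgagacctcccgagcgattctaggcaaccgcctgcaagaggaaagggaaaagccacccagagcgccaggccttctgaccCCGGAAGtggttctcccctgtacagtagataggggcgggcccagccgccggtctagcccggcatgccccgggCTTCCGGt
Timm50: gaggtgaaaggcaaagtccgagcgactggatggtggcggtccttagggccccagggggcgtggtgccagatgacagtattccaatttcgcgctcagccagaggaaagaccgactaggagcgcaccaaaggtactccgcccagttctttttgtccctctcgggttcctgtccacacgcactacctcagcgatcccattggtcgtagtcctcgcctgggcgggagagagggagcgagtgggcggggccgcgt
Timm9: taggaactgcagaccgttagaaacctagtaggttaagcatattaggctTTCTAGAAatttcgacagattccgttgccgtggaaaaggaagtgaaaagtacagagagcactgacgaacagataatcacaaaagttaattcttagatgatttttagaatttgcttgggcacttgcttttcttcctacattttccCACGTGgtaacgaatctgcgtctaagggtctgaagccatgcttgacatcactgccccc
Hspe1: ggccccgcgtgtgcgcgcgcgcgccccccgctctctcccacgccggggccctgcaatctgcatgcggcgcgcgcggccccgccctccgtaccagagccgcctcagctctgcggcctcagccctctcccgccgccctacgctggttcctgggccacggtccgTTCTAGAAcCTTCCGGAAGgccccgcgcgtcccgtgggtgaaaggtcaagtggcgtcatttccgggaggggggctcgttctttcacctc
Pam16: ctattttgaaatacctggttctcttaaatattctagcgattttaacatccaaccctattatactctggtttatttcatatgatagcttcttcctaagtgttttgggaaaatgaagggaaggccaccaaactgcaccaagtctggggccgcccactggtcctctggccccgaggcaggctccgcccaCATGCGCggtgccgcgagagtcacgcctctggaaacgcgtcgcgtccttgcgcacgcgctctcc

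The stretch of Tomm70a held 2 ETS sites, and that of Hspe1 held 2 ETS sites that overlap one another as well as 2 heat shock elements, 1 of them within the same run of capitals. Timm9 had 1 E-box and 1 heat shock element, Pam16 had 1 NRF1 site, and Timm50 had none of the 4 motifs. Such a stretch was given for 29 of the 34 members. An ETS site lay in 13 of them (44.8%), compared with 11.7% of the 13605 array genes with a stretch and 6.91% of all 32851 stretches. The heat shock element was found in 6 members (20.7%; 7.53% of array genes and 7.17% of all stretches), the E-box in 3 (10.3%; 8.75% and 6.02%) and the NRF1 site in 2 (6.9%; 5.33% and 3.24%). Among the 10 members called lower with OXP that had a stretch, 4 held an ETS site, and among the other 19 members 9 did. These matches describe the letters in the window and do not show binding.

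In the TOM complex, 2 of 6 members fell and 1 rose with OXP, 2 fell with STS, and 4 fell with STS+OXP. Tomm70a, the receptor that takes hydrophobic carrier precursors from cytosolic chaperones, read 7.71, 8.05 and 7.84 on the CTR arrays, 7.42, 7.35 and 7.41 on the STS arrays, 7.34, 6.95 and 7.00 on the OXP arrays and 7.00, 6.47 and 6.73 on the STS+OXP arrays. All treated arrays lay below all CTR arrays, and the STS+OXP arrays were the lowest as a group although they overlapped the OXP arrays at their upper end. Tomm70a fell by 0.77 ± 0.14 with OXP (SE, adjusted p = 0.000485), to 58.7% of the CTR signal. The fall with STS+OXP was 1.14 ± 0.14 (adjusted p = 1.59e-05), to 45.5%. With STS it fell by 0.47 ± 0.14 (adjusted p = 0.0291), a call that was lost without CTR 2, CTR 3, STS 1, STS 2 or STS 3 (adjusted p 0.0687 to 0.111).

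Tomm5, a small subunit that steadies the TOM pore, gave signals of 9.61, 9.41 and 9.36 on the CTR arrays, 9.12, 9.10 and 8.98 on the STS arrays, 8.47, 8.54 and 8.60 on the OXP arrays and 8.44, 8.73 and 8.44 on the STS+OXP arrays. The groups formed 3 separate levels, with CTR above STS and STS above both OXP groups. Tomm5 fell by 0.92 ± 0.09 with OXP (adjusted p = 3.72e-06), to 52.7% of the CTR signal, and by 0.93 ± 0.09 with STS+OXP (adjusted p = 3.72e-06). Its fall of 0.39 ± 0.09 with STS (adjusted p = 0.0105) was no longer called without CTR 1 or STS 3 (adjusted p 0.0559 to 0.0566).

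Tomm7, another small subunit, moved the other way, at 9.03, 8.85 and 8.91 on the CTR arrays, 8.87, 8.82 and 8.75 on the STS arrays, 9.47, 9.19 and 9.31 on the OXP arrays and 9.13, 9.34 and 9.06 on the STS+OXP arrays. Every OXP array exceeded every CTR array, and Tomm7 rose by 0.39 ± 0.09 (adjusted p = 0.00465), to 131% of the CTR signal. Its difference was −0.11 ± 0.09 with STS and 0.25 ± 0.09 with STS+OXP against CTR. The latter was called without CTR 1, OXP 1, OXP 2 or STS+OXP 3 (adjusted p 0.0369 to 0.0484).

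Tomm20, the presequence receptor, was measured at 11.39, 11.42 and 11.42 on the CTR arrays, 11.17, 11.28 and 11.36 on the STS arrays, 11.27, 11.25 and 11.18 on the OXP arrays and 11.21, 11.05 and 11.16 on the STS+OXP arrays. All treated arrays were below the CTR arrays, and the fall with STS+OXP was called at 0.27 ± 0.07 (adjusted p = 0.00895). The differences of −0.18 ± 0.07 with OXP and −0.15 ± 0.07 with STS were not called. The further probe sets of Tomm20, all above background, disagreed. With OXP, STS and STS+OXP in turn, the set with mean 10.21 differed by −0.31, −0.24 and −0.40. The set with mean 6.73 differed by −0.40, −0.01 and −0.38, and that with mean 4.84 by 0.59, −0.07 and 0.19. Tomm22, the central receptor that joins the others to the pore, stood at 8.65, 8.74 and 8.63 on the CTR arrays, 8.57, 8.54 and 8.54 on the STS arrays, 8.59, 8.47 and 8.61 on the OXP arrays and 8.34, 8.27 and 8.33 on the STS+OXP arrays. Its STS+OXP arrays lay below the arrays of every other group. Tomm22 fell by 0.36 ± 0.07 with STS+OXP (adjusted p = 0.000760), with −0.12 ± 0.07 for OXP and −0.13 ± 0.07 for STS, neither called. Tomm6, the remaining small subunit, ranged from 9.71 to 10.03 over the 12 arrays and was called in no comparison. Its second probe set (mean 8.55) differed by −0.13 with OXP, 0.025 with STS and −0.18 with STS+OXP. On that set the STS+OXP arrays of Tomm6 lay below the CTR arrays. Samm50, the core of the SAM complex, measured 8.78, 8.78 and 8.81 on the CTR arrays, 8.68, 8.66 and 8.67 on the STS arrays, 9.02, 8.82 and 8.95 on the OXP arrays and 8.65, 8.79 and 8.64 on the STS+OXP arrays. Its differences from CTR were 0.14 ± 0.07 with OXP, −0.12 ± 0.07 with STS and −0.09 ± 0.07 with STS+OXP, none of them called. On a second probe set of Samm50 (mean 8.03) they were −0.03, −0.11 and −0.05.

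**Figure D2:**
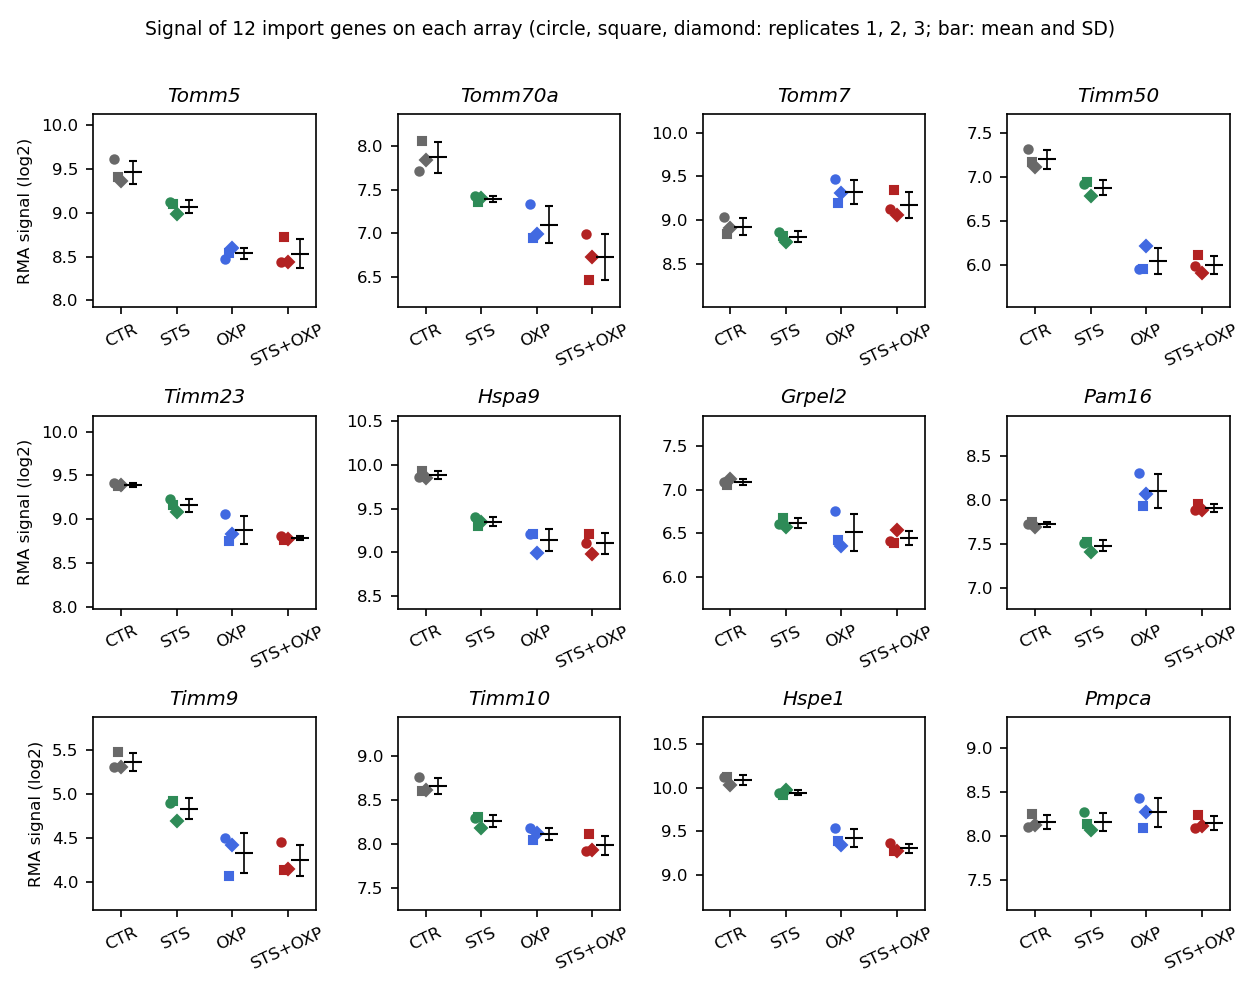
RMA signal (log2) of 12 import genes on each array, by group; circles, squares and diamonds are replicates 1, 2 and 3, bars give the mean and SD of 3 arrays, and every panel spans the same height. Timm50, Tomm5 and Hspe1 drop on all OXP and STS+OXP arrays, the mean of Tomm7 and that of Pam16 are highest in the OXP group, whose arrays overlap the STS+OXP arrays, and the groups of Pmpca overlap.

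In the TIM23 channel, 3 of 5 members fell with OXP, 2 with STS and 4 with STS+OXP, and none rose. Timm50, the receptor that hands presequences from TOM to the channel, had the largest fall with OXP of all members. It read 7.32, 7.17 and 7.11 on the CTR arrays, 6.92, 6.94 and 6.78 on the STS arrays, 5.95, 5.96 and 6.21 on the OXP arrays and 5.98, 6.11 and 5.91 on the STS+OXP arrays. CTR and STS arrays did not overlap, and both lay clear of the OXP and STS+OXP arrays, which overlapped each other. Timm50 fell by 1.16 ± 0.09 with OXP (adjusted p = 3.76e-07), to 44.6% of the CTR signal. With STS+OXP it fell by 1.20 ± 0.09 (adjusted p = 2.76e-07), to 43.5%. The smaller fall of 0.32 ± 0.09 with STS (adjusted p = 0.0285) was lost without CTR 1, CTR 2, STS 1 or STS 3 (adjusted p 0.0534 to 0.129). Its stretch before the start was the 1 printed above without a match to any of the 4 motifs.

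Timm23, which forms the channel itself, stayed between 9.37 and 9.41 on the CTR arrays and lay between 8.75 and 9.06 on the OXP and between 8.77 and 8.81 on the STS+OXP arrays. It fell by 0.51 ± 0.08 with OXP (adjusted p = 0.000204) and by 0.61 ± 0.08 with STS+OXP (adjusted p = 4.56e-05). With STS its difference was −0.23 ± 0.08, which was not called (adjusted p = 0.0716) but was without OXP 1 or OXP 2 (0.0212 and 0.0447), arrays that enter this comparison only through the shared estimate of the spread. Timm21, a subunit that bridges TOM and TIM23, was at 6.48, 6.26 and 6.35 on the CTR arrays, 6.12, 5.97 and 6.00 on the STS arrays, 6.02, 5.82 and 5.62 on the OXP arrays and 5.73, 5.88 and 5.78 on the STS+OXP arrays. Its treated arrays all lay below the CTR arrays. Timm21 fell by 0.54 ± 0.10 with OXP (adjusted p = 0.000646) and by 0.57 ± 0.10 with STS+OXP (adjusted p = 0.000465). The call of its fall of 0.34 ± 0.10 with STS (adjusted p = 0.0334) was lost without CTR 1, CTR 3, STS 2 or STS 3 (adjusted p 0.0786 to 0.141).

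The paralogs Timm17a and Timm17b are alternative partners of Timm23 in the channel. Timm17a measured 8.69, 8.56 and 8.45 on the CTR arrays, 8.36, 8.31 and 8.33 on the STS arrays, 8.55, 8.33 and 8.43 on the OXP arrays and 8.34, 8.39 and 8.27 on the STS+OXP arrays. All STS and STS+OXP arrays were below the CTR arrays, and the OXP arrays overlapped them. Timm17a fell by 0.23 ± 0.08 with STS+OXP (adjusted p = 0.0403), a call lost without CTR 1, CTR 2, STS 1, STS 2, STS 3, STS+OXP 1, STS+OXP 2 or STS+OXP 3 (adjusted p 0.0519 to 0.168). Timm17b gave 6.39, 6.69 and 6.68 on the CTR arrays, 6.88, 6.83 and 6.80 on the STS arrays, 7.04, 6.79 and 6.80 on the OXP arrays and 6.94, 6.58 and 6.86 on the STS+OXP arrays. Its differences were positive and not called, at 0.29 ± 0.11 with OXP, 0.25 ± 0.11 with STS and 0.21 ± 0.11 with STS+OXP. Without STS+OXP 2 the first and the last were called (adjusted p 0.0360 and 0.0450). A dimmer probe set of Timm17b, with a mean of 5.62, differed by −0.11 with OXP, 0.08 with STS and 0.15 with STS+OXP, none called when it stood for the gene. The average of both probe sets was called higher with STS+OXP (0.18, adjusted p = 0.0479), and the difference between the 2 paralogs was not tested.

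In the import motor, 4 of 7 members fell and 1 rose with OXP, 3 fell with STS, and 4 fell with STS+OXP. Hspa9, the matrix Hsp70 that pulls precursors inward, was at 9.86, 9.93 and 9.85 on the CTR arrays, 9.41, 9.30 and 9.35 on the STS arrays, 9.21, 9.21 and 9.00 on the OXP arrays and 9.11, 9.21 and 8.98 on the STS+OXP arrays. CTR arrays were the highest, STS arrays followed, and the arrays of both OXP groups lay lowest. Hspa9 fell by 0.74 ± 0.08 with OXP (adjusted p = 7.68e-06), to 59.8% of the CTR signal, and by 0.78 ± 0.08 with STS+OXP (adjusted p = 4.95e-06). Its fall of 0.53 ± 0.08 with STS (adjusted p = 0.000510) was matched among the members by that of Timm9. Both further probe sets of Hspa9 were lower too, by 0.97 and 0.70 with OXP and by 0.73 and 0.44 with STS.

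Grpel1 and Grpel2 both release the nucleotide from the matrix Hsp70. Grpel2 stood at 7.08, 7.05 and 7.12 on the CTR arrays, 6.60, 6.68 and 6.57 on the STS arrays, 6.75, 6.43 and 6.36 on the OXP arrays and 6.41, 6.39 and 6.54 on the STS+OXP arrays. Each treated array was below each CTR array. Grpel2 fell by 0.57 ± 0.09 with OXP (adjusted p = 0.000295), by 0.47 ± 0.09 with STS (adjusted p = 0.00367) and by 0.64 ± 0.09 with STS+OXP (adjusted p = 0.000113). Grpel1 gave 8.61, 8.60 and 8.57 on the CTR arrays, 8.31, 8.30 and 8.23 on the STS arrays, 8.88, 8.51 and 8.70 on the OXP arrays and 8.44, 8.45 and 8.36 on the STS+OXP arrays. The STS arrays were below and the OXP arrays on both sides of the CTR arrays. Grpel1 fell by 0.32 ± 0.08 with STS (adjusted p = 0.0198), a call lost without CTR 1, CTR 2, STS 2 or STS 3 (adjusted p 0.0501 to 0.0832). Its difference was 0.10 ± 0.08 with OXP and −0.18 ± 0.08 with STS+OXP, and neither was called.

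Pam16, the J-like subunit that restrains the J protein of the motor, was the member of this class that rose. Its signals were 7.72, 7.75 and 7.69 on the CTR arrays, 7.51, 7.52 and 7.41 on the STS arrays, 8.31, 7.93 and 8.06 on the OXP arrays and 7.89, 7.96 and 7.88 on the STS+OXP arrays. All OXP arrays were above and all STS arrays below the CTR arrays, with the STS+OXP arrays also above them. Pam16 rose by 0.38 ± 0.09 with OXP (adjusted p = 0.00389), to 130% of the CTR signal. The difference was −0.24 ± 0.09 with STS and 0.19 ± 0.09 with STS+OXP, neither called. Array OXP 1 read highest, and without it Pam16 was called lower with STS and higher with STS+OXP (adjusted p 0.0200 and 0.0448). Without OXP 2 it was also called lower with STS (0.0400).

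The J proteins Dnajc19 and Dnajc15 stimulate the ATPase of the matrix Hsp70. Dnajc15 measured 8.28, 8.20 and 8.20 on the CTR arrays, 8.03, 7.99 and 7.84 on the STS arrays, 8.29, 7.83 and 8.12 on the OXP arrays and 7.74, 7.91 and 7.60 on the STS+OXP arrays. It fell by 0.47 ± 0.11 with STS+OXP (adjusted p = 0.00491), with −0.27 ± 0.11 for STS and −0.14 ± 0.11 for OXP, neither called. The OXP arrays of Dnajc15 were widely spread, with OXP 1 at the level of the CTR arrays and OXP 2 within the range of the STS+OXP arrays. Dnajc19 was at 7.44 to 7.76 in CTR, 7.24 to 7.36 in STS, 7.03 to 7.30 in OXP and 6.88 to 7.11 in STS+OXP cells. Dnajc19 fell by 0.42 ± 0.10 with OXP (adjusted p = 0.00468) and by 0.60 ± 0.10 with STS+OXP (adjusted p = 0.000310). A dimmer probe set of Dnajc19, with a mean of 4.19, differed in the opposite direction, by 0.19 with OXP and by 0.34 with STS+OXP, and when it stood for the gene the latter was called higher (adjusted p = 0.00285). Timm44, which tethers Hspa9 to the channel, fell by 0.34 ± 0.11 with OXP (adjusted p = 0.0338), from 8.54 to 8.79 on the CTR arrays to 8.18 to 8.47 on the OXP arrays. That call was lost without CTR 1, CTR 2, OXP 2 or OXP 3 (adjusted p 0.0639 to 0.140).

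Among TIM22 and the small Tim chaperones, 2 of 7 members fell and 1 rose with OXP, 2 fell with STS, and 3 fell with STS+OXP. Timm9, which forms a hexamer with Timm10 that shields hydrophobic precursors, was at 5.31, 5.48 and 5.31 on the CTR arrays, 4.90, 4.91 and 4.69 on the STS arrays, 4.50, 4.07 and 4.42 on the OXP arrays and 4.45, 4.14 and 4.15 on the STS+OXP arrays. The STS arrays lay between the CTR arrays and those of the OXP groups, with no overlap. Timm9 fell by 1.04 ± 0.12 with OXP (adjusted p = 1.17e-05), to 48.7% of the CTR signal, by 0.53 ± 0.12 with STS (adjusted p = 0.00750) and by 1.12 ± 0.12 with STS+OXP (adjusted p = 5.85e-06). The Timm9 gene and Tomm20l overlap at their 3′ ends on chromosome 12, and a second probe set of Timm9 at background (mean 2.91) differed by −0.26 with OXP, which was not called (adjusted p = 0.169). When that probe set stood for the gene, Timm9 was not called with STS (−0.08, adjusted p = 0.765), with STS+OXP (−0.33, adjusted p = 0.0787) or in STS+OXP against STS (−0.25, adjusted p = 0.226) either. Its partner Timm10 lay at 8.61 to 8.77 in CTR, 8.19 to 8.31 in STS, 8.05 to 8.18 in OXP and 7.92 to 8.11 in STS+OXP cells. Timm10 fell by 0.55 ± 0.08 with OXP (adjusted p = 9.05e-05), by 0.40 ± 0.08 with STS (adjusted p = 0.00315) and by 0.68 ± 0.08 with STS+OXP (adjusted p = 1.31e-05). On their brightest probe sets, both genes of the Timm9-Timm10 hexamer were called lower in every comparison with CTR.

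Timm22, the carrier translocase that receives precursors from the small Tims, measured 6.89, 7.02 and 6.97 on the CTR arrays, 6.86, 7.00 and 6.86 on the STS arrays, 6.88, 6.72 and 6.79 on the OXP arrays and 6.62, 6.65 and 6.65 on the STS+OXP arrays. The STS+OXP arrays were the lowest, and Timm22 fell by 0.32 ± 0.07 (adjusted p = 0.00303), with −0.16 ± 0.07 for OXP and −0.05 ± 0.07 for STS. Timm29, a subunit of the TIM22 complex, gave 6.23, 6.18 and 6.15 on the CTR arrays, 6.30, 6.20 and 6.10 on the STS arrays, 6.62, 6.45 and 6.42 on the OXP arrays and 6.42, 6.45 and 6.27 on the STS+OXP arrays. All OXP arrays exceeded the CTR arrays, and Timm29 rose by 0.31 ± 0.08 (adjusted p = 0.00829), a call lost without OXP 1 and OXP 2 together (adjusted p = 0.123). A second, dimmer probe set of Timm29 (mean 4.37) differed by −0.10. Timm8b, another small Tim, read 7.84, 7.83 and 7.71 on the CTR arrays, 7.73, 7.76 and 7.54 on the STS arrays, 8.30, 7.87 and 8.00 on the OXP arrays and 7.75, 7.94 and 7.70 on the STS+OXP arrays. OXP 1 was well above the other arrays of its group, the difference with OXP was 0.27 ± 0.11 (adjusted p = 0.0837), and of the arrays left out in turn only OXP 2 turned this into a call (adjusted p = 0.0213). Timm10b, a small Tim bound to TIM22, stayed between 8.00 and 8.29 on all arrays and was not called. Timm8a2 was at background throughout.

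Chchd4, the oxidoreductase of the disulfide relay, was at 6.98, 6.69 and 7.07 on the CTR arrays, 6.75, 6.58 and 6.79 on the STS arrays, 6.38, 6.23 and 6.33 on the OXP arrays and 6.23, 6.41 and 6.37 on the STS+OXP arrays. The OXP and STS+OXP arrays were all below the CTR and STS arrays. Chchd4 fell by 0.60 ± 0.10 with OXP (adjusted p = 0.000341), to 66.1% of the CTR signal, and by 0.58 ± 0.10 with STS+OXP (adjusted p = 0.000455). With STS the difference was −0.20 ± 0.10 (adjusted p = 0.216). CTR 2 was the lowest CTR array, and without it the STS difference of −0.32 was called (adjusted p = 0.0361).

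On its brightest probe set, neither subunit of the processing peptidase was called in any comparison. Pmpca, the substrate-holding subunit, gave 8.10, 8.25 and 8.12 on the CTR arrays, 8.27, 8.13 and 8.06 on the STS arrays, 8.43, 8.09 and 8.27 on the OXP arrays and 8.09, 8.24 and 8.11 on the STS+OXP arrays. Pmpcb, the catalytic subunit, gave 7.50, 7.55 and 7.49 on the CTR arrays, 7.48, 7.52 and 7.52 on the STS arrays, 7.70, 7.47 and 7.58 on the OXP arrays and 7.66, 7.28 and 7.42 on the STS+OXP arrays. On these probe sets, arrays of all groups overlapped for both genes. The OXP difference was 0.11 ± 0.09 for Pmpca and 0.07 ± 0.09 for Pmpcb, and the STS+OXP difference was −0.01 ± 0.09 and −0.06 ± 0.09. A second probe set of Pmpca (mean 6.77) was lower by 0.21 with OXP and by 0.35 with STS+OXP. All its OXP and STS+OXP arrays lay below its CTR arrays. Downstream of the peptidase, Hspe1, the lid of the matrix chaperonin, was at 10.12, 10.12 and 10.03 on the CTR arrays, 9.94, 9.91 and 9.97 on the STS arrays, 9.54, 9.39 and 9.34 on the OXP arrays and 9.37, 9.28 and 9.28 on the STS+OXP arrays. CTR, STS and the OXP groups formed separate levels. Hspe1 fell by 0.67 ± 0.07 with OXP (adjusted p = 5.11e-06), to 63.0% of the CTR signal, and by 0.78 ± 0.07 with STS+OXP (adjusted p = 1.21e-06), to 58.3%. The STS difference of −0.15 ± 0.07 was not called (adjusted p = 0.192). Its second probe set was lower by 0.71 with OXP and by 0.74 with STS+OXP.

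Of the 4 members that match by symbol and lie outside these complexes, 1 was called. Tomm34, a cytosolic cofactor of Hsp70 and Hsp90, measured 6.87, 6.69 and 6.60 on the CTR arrays, 6.87, 6.80 and 6.87 on the STS arrays, 7.13, 6.94 and 7.00 on the OXP arrays and 6.93, 6.94 and 6.93 on the STS+OXP arrays. The OXP arrays exceeded the CTR arrays, and Tomm34 rose by 0.31 ± 0.08 with OXP (adjusted p = 0.00874). Its call was lost without CTR 3 (adjusted p = 0.0502) and without OXP 1 and OXP 2 together (0.0637). Tomm40l, a paralog of the TOM pore, gave 5.69, 5.30 and 5.31 on the CTR arrays, 5.85, 5.81 and 5.73 on the STS arrays, 5.31, 5.63 and 5.80 on the OXP arrays and 5.58, 5.84 and 5.66 on the STS+OXP arrays. The STS arrays were above the CTR arrays, yet the difference of 0.36 ± 0.13 was not called (adjusted p = 0.0818). CTR 1 lay above the other CTR arrays, and without it Tomm40l was called higher with STS (0.49, adjusted p = 0.0263), as it was without OXP 1 (adjusted p = 0.0276). With STS+OXP its difference was 0.26 ± 0.13 (adjusted p = 0.171), which was called higher without CTR 1 (0.38, adjusted p = 0.0384). A dimmer probe set of Tomm40l (mean 4.67) differed by 0.26 with STS and 0.25 with OXP, but by −0.07 with STS+OXP. Timmdc1, an assembly factor of respiratory complex I, ranged from 3.85 to 4.64 and was not called. Tomm20l, a paralog of Tomm20, was at background.

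**Figure D3:**
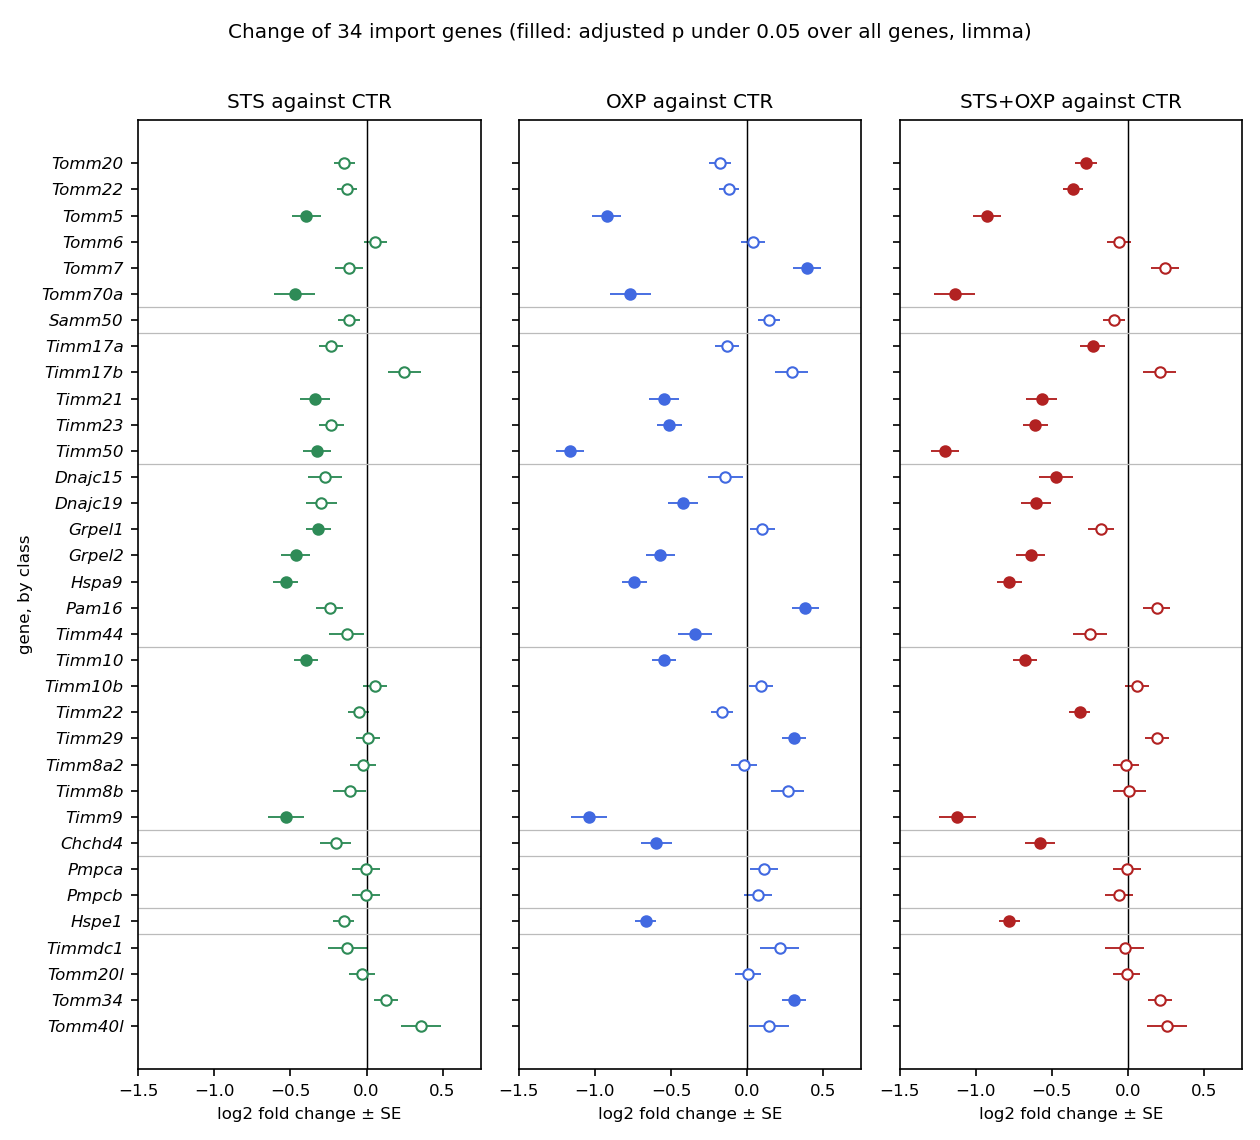
Log2 fold change with its SE of the 34 genes in STS, OXP and STS+OXP against CTR, ordered by class from the TOM complex at the top; filled points were called by limma (adjusted p under 0.05 over all genes). Filled points lie left of 0 in all panels except for Tomm7, Pam16, Timm29 and Tomm34 with OXP, and Timm50 is the leftmost point with OXP and with STS+OXP.

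Some members have a further, dimmer probe set, and averaging all probe sets of a gene moved their values by over 1.5 times. With OXP, Timm50 then fell by 0.63, Timm9 by 0.65 and Grpel2 by 0.28 on the log2 scale, each still called (adjusted p 5.43e-05, 0.000155 and 0.0280). Dnajc19 at −0.08 and Timm29 at 0.10 were no longer called with OXP (adjusted p 0.327 and 0.225). With STS, Timm50 at −0.15, Timm9 at −0.31 and Tomm70a at −0.22 were no longer called (adjusted p 0.274, 0.0529 and 0.219), whereas Grpel2 fell by 0.31 (adjusted p = 0.0341). With STS+OXP, Timm50 fell by 0.62, Timm9 by 0.73, Grpel2 by 0.36 and Timm22 by 0.18, all still called, and Dnajc19 at −0.06 was not. In STS+OXP against STS, Timm50 fell by 0.47 and was still called, whereas Timm22 at −0.10 was not (adjusted p = 0.268). The further probe sets of Timm50, Timm9, Grpel2 and Timm22 (means 3.22, 2.91, 3.41 and 3.46) did not exceed background in any group. Averages of these genes therefore cannot decide whether the change on the brightest set holds. Those of Tomm70a and Timm29 exceeded background in every group, and Dnajc19 had a set of each kind. The part of background signal in the smaller averages was not tested.

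The count of 9 members called with STS depended on single arrays. It was 4 without STS 3, 14 without OXP 1 and 15 without OXP 1 and OXP 2 together, although the OXP arrays enter it only through the spread. In these settings 11.3%, 20.6% and 22.8% of all genes were called with STS. With OXP against CTR, 17 members were called without OXP 1 and 17 without OXP 2. No share of all genes is set beside these OXP counts, which show only how the calls depend on the arrays. Without both, OXP 3 alone stood for the group, and Timm29 differed by 0.24 and Tomm34 by 0.28.

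Whether OXP changed import transcripts in starved cells was asked by setting STS+OXP against STS. Here 12 members fell and 2 rose, while 11.2% of all genes fell and 10.8% rose, and the median was −0.12 against 0.04 over all genes. Timm50 fell by 0.88 ± 0.09 (adjusted p = 1.01e-05), Tomm70a by 0.67 ± 0.14 (adjusted p = 0.00246) and Hspe1 by 0.63 ± 0.07 (adjusted p = 1.67e-05). Timm9, Tomm5, Timm23, Chchd4, Dnajc19, Timm10, Timm22, Hspa9 and Tomm22 made up the rest, with falls from 0.23 to 0.59. Pam16 rose by 0.43 ± 0.09 (adjusted p = 0.00258) and Tomm7 by 0.36 ± 0.09 (adjusted p = 0.0124). The count of 14 was 9 without STS 1, without STS 2 or without STS 3. These lower counts are not set beside the share of all genes and show only how the calls depend on single arrays. Timm50, Tomm70a, Hspe1, Timm9, Tomm5, Timm23 and Pam16 were still called whichever array was left out.

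The added effect of starvation on OXP-treated cells was asked by setting STS+OXP against OXP. No member was called by limma, and 0.0117% of all genes were. At an unadjusted p under 0.05, 8 of the 34 members passed, as did 12.6% of all genes. The Welch test that the methods name called 0 after adjustment and 2 before it. The difference was negative for 30 of the 34, with a median of −0.10 against 0.00 over all genes. The arrays of both groups did not overlap for 6 members, all lower with STS+OXP, while they did not overlap for 12.4% of all genes. The 4 members with the smallest p were Tomm22 at −0.24 ± 0.07, Grpel1 at −0.28 ± 0.08, Samm50 at −0.23 ± 0.07 and Dnajc15 at −0.33 ± 0.11, and their adjusted p lay between 0.257 and 0.278. These 4 were the members called without OXP 2 (adjusted p 0.0120 to 0.0321), the OXP array nearest to the STS+OXP arrays. Without it, 6.82% of all genes were called. Without OXP 1, no member was called. For Tomm70a the difference was −0.37 ± 0.14 (adjusted p = 0.298). The second probe set of Samm50 (mean 8.03), above background in all 4 groups, differed by only −0.02 between STS+OXP and OXP.

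**Figure D4:**
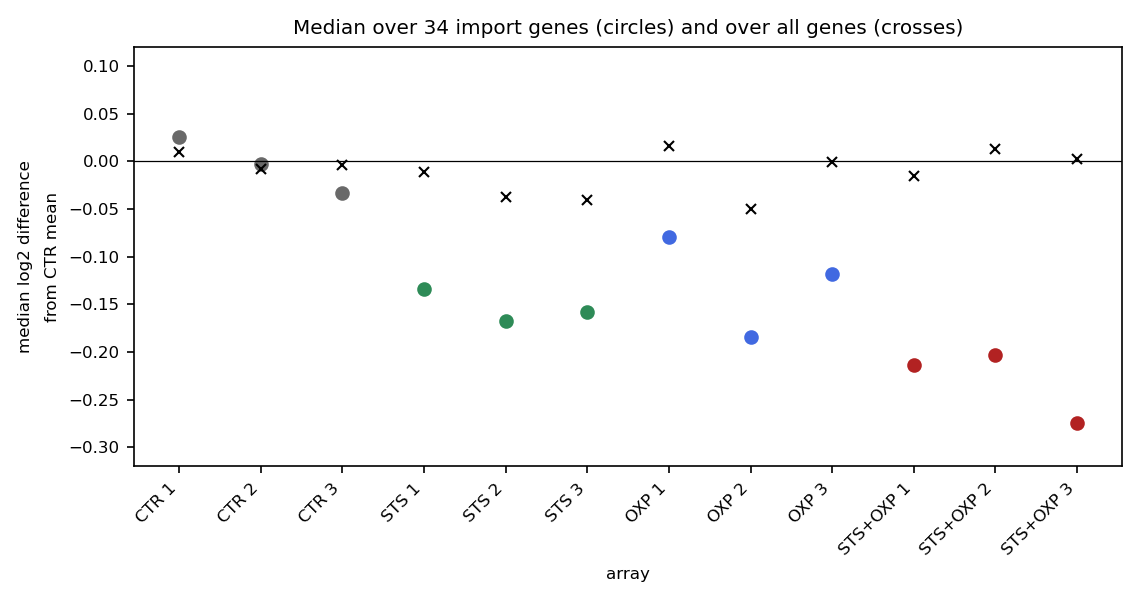
Median over the 34 import genes (circles) and over all genes (crosses) of the log2 signal minus the CTR mean, for each array. Circles lie from −0.168 to −0.134 on the STS, from −0.184 to −0.0797 on the OXP and from −0.275 to −0.204 on the STS+OXP arrays, while the crosses stay near 0.

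Taken by array, the median of the 34 genes against the CTR mean was −0.134, −0.168 and −0.158 on the STS arrays, −0.0797, −0.184 and −0.118 on the OXP arrays, and −0.214, −0.204 and −0.275 on the STS+OXP arrays. The lowest group was STS+OXP, and its arrays did not overlap those of either single treatment in this summary. For the TIM23 channel alone the array medians were −0.332, −0.544 and −0.561 with OXP and −0.581, −0.487 and −0.582 with STS+OXP. On OXP 1, the array with the high Gapdh ratio, the medians of all members, of the TIM23 channel and of the motor were the nearest to 0 of the OXP group, and the part of RNA quality in this was not tested.

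Whether STS acted differently with and without OXP was tested by the interaction, the STS effect in OXP-treated cells minus that in untreated cells. Hspa9 was the single member called, at 0.49 ± 0.12 (adjusted p = 0.0180), and 8.29% of all genes were called in either direction. STS lowered Hspa9 by 0.53 in untreated cells, whereas the STS+OXP arrays differed from the OXP arrays by −0.04 ± 0.08. The call was lost without STS 2 or STS+OXP 2 (adjusted p 0.0511 and 0.0514). Grpel2, Tomm5 and Timm9 had the next smallest p, with interactions of 0.40 ± 0.13, 0.39 ± 0.13 and 0.45 ± 0.17 that were not called (adjusted p 0.0918, 0.0973 and 0.136). Grpel2 was called without OXP 1 (0.52, adjusted p = 0.00534). At an unadjusted p under 0.05, 7 of the 34 members passed, as did 21.1% of all genes.

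The other genes of the pathway were read from lists. Over all genes, 13.9% fell and 17.5% rose with OXP, 6.74% fell and 9.75% rose with STS, and 14.2% fell and 16.4% rose with STS+OXP. In the interaction, 2.53% of all genes were called higher and 5.76% lower. Of 19 measured genes for further import and membrane assembly factors, 4 fell and 1 rose with OXP, 2 fell with STS and 6 fell with STS+OXP. Chchd6 and Chchd3, subunits of the complex that shapes cristae, fell by 1.32 (adjusted p = 7.80e-07) and 0.80 (adjusted p = 5.70e-06) with OXP. Mipep, a second presequence peptidase, fell by 0.54 (adjusted p = 0.00448), and Aifm1, the docking partner of Chchd4, fell by 0.53 (adjusted p = 0.000556). Mtch1 was called lower in the interaction (−0.38, adjusted p = 0.0491).

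Among 14 mitochondrial proteases and folding factors, 7 fell and 1 rose with OXP, 3 fell with STS, and 6 fell and 1 rose with STS+OXP. Lonp1, the main protease of the matrix, fell by 1.22 with OXP (adjusted p = 2.92e-05). It was lowest on OXP 1, at 6.81, 7.59 and 7.47 on the OXP arrays against 8.49 to 8.53 on the CTR arrays. With OXP, the prohibitin Phb fell by 0.77 (adjusted p = 0.00128) and Htra2 by 0.52 (adjusted p = 0.000121). Dnaja3, a J protein that works with Hspa9, fell by 0.44 (adjusted p = 0.000219). Phb was also lowest on OXP 1, at 7.81, 8.45 and 8.57 on the OXP arrays. Lonp1 and Dnaja3 were also called higher in the interaction, as Hspa9 was, at 1.17 and 0.60.

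Of 14 transcription regulators of nuclear genes for mitochondria, 9 fell and 1 rose with OXP, 5 fell and 1 rose with STS, and 8 fell and 1 rose with STS+OXP. The largest falls with OXP were those of Atf5 (−2.14, adjusted p = 0.000973) and Ddit3 (−1.46, adjusted p = 0.000701), both factors of the stress response. They were followed by the coactivator Pprc1 (−1.22, adjusted p = 8.11e-07) and Atf4 (−1.04, adjusted p = 2.14e-05). Atf5 read 8.72, 8.74 and 8.87 on the CTR arrays and 5.32, 7.82 and 6.78 on OXP 1, OXP 2 and OXP 3. Its fall was thus uneven and largest on OXP 1, the array that stood apart in RNA quality, whose part was not tested. Myc fell by 0.96 with OXP (adjusted p = 3.48e-06) and by 0.79 with STS (adjusted p = 7.85e-05), and Hsf1 was not analysed here. Myc, Atf4, Ddit3 and Esrra were called higher in the interaction, which gave 4 of the 14, while 2.53% of all genes were called higher.

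Of 10 cytosolic chaperones of precursors, 4 rose and 3 fell with OXP, 2 rose with STS, and 2 rose and 3 fell with STS+OXP. Stip1, which links Hsp70 with Hsp90, and the Hsp90 gene Hsp90aa1 fell by 1.04 (adjusted p = 2.08e-05) and 0.83 (adjusted p = 0.00156) with OXP. Both were lowest on OXP 1 among the OXP arrays, at 7.25, 7.66 and 7.91 for Stip1 and 8.62, 9.04 and 9.20 for Hsp90aa1. Hspa4 fell by 0.53 (adjusted p = 5.99e-05), while the J protein Dnajb6 rose by 0.54 (adjusted p = 3.33e-05). Dnajb6 was called lower in the interaction (−0.41, adjusted p = 0.0217).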

How the data were processed

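Total RNA of CT26 cells was hybridized to 12 Affymetrix mouse arrays, and each array was put in its group by its label. According to the submitters' processing notes, the authors deposited log2 signals computed with RMA in R 3.02. The file holds 45141 probe sets, whose values were used as deposited, from 1.79 to 12.9. Arrays give no counts, and their number, 3 per group, limits the precision. RMA draws all arrays to 1 distribution, so a shift common to all genes would not be seen.

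Gene symbols came from the platform annotation. A single symbol was paired with 28898 probe sets, while 551 had more than 1, 15588 had no symbol and 104 served as controls. Where a gene had several probe sets, the brightest by its 12-array mean stood for it, which gave 17097 genes. The 34 members had 60 such probe sets, 16 members having 1 and 18 having several. A further 5 probe sets that name a member together with another gene were left out.

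Group means for the 4 groups were estimated jointly by limma 3.58.1 under R 4.3.3 (8 residual and 5.05 prior degrees of freedom). All tests were two-sided, with Benjamini-Hochberg adjustment over all genes, and a gene was called at an adjusted p under 0.05. The code was tested on simulated data. Errors are the SE of the model. Promoter stretches and gene positions are those of RefSeq on GRCm38.p6.

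The members and lists were chosen with earlier results of these data known. Values on all arrays are given for the 4 called members at each end of each comparison with CTR, for the 4 smallest p in the interaction and in STS+OXP against OXP, and for a fixed set of receptors, paralogs, peptidases and chaperones; from each list, up to 4 called genes with the largest change with OXP are named, and Myc. Alternatives were cyclic loess or median centring of the arrays, a gene's average over its probe sets, specific probe sets only (no _a, _s or _x set), a filter at the median signal, a robust eBayes with an intensity trend, array weights, fits limited to the groups compared, a replicate block, a fold of at least 2, the methods' t-test (Welch), each array left out, and OXP 1 and OXP 2 left out together.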

Additional observations from a re-analysis of the deposited data

Results flagged for a closer look

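The effect of STS on Hspa9 differed between cells with and without OXP, with an interaction of 0.49 on the log2 scale (limma, adjusted p = 0.0180). Hspa9 averaged 9.88 in CTR, 9.35 in STS-treated, 9.14 in OXP-treated and 9.10 in STS+OXP-treated cells. Over the alternatives the interaction ranged from 0.42 to 0.63, and its adjusted p reached 0.0514. It was no longer called without STS 2 or without STS+OXP 2. Single arrays within the groups of 3 were not tested as outliers.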

How the results depend on the processing

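Of the members called in each comparison, 12 of 17 with OXP, 14 of 17 with STS+OXP, 3 of 9 with STS and 6 of 14 in STS+OXP against STS were called, in the same direction, under every alternative that measured them, apart from the fold limit and the methods' t-test. The Hspa9 call in the interaction was not. Leaving out 1 array at a time gave 16 to 18 called members with OXP, 4 to 14 with STS, 16 to 20 with STS+OXP, 9 to 14 in STS+OXP against STS, 0 to 4 in STS+OXP against OXP and 0 to 2 in the interaction. Without OXP 1 and OXP 2 together, 15 were called with STS and 3 in the interaction. With STS, 16 were called with array weights and 15 from only the groups compared. These counts are not set beside the share of all genes and show only how the calls depend on the settings. The interaction had 2 called members with cyclic loess, with the average of all probe sets or with array weights. With specific probe sets only, which measured 26 members, 9 were called in STS+OXP against STS. A fold of at least 2 left 2 members with OXP, 3 with STS+OXP and 0 with STS, in STS+OXP against STS and in the interaction. The methods' t-test after Benjamini-Hochberg adjustment called 4 with OXP, 4 with STS and 4 in STS+OXP against STS, and without adjustment 14 with STS and 2 in STS+OXP against OXP. Dnajc19 reversed: with specific probe sets only it was at 0.19 with OXP, 0.34 with STS+OXP and 0.30 in STS+OXP against STS, and with the average of all probe sets at 0.0587 in the last, since another, dimmer probe set then stands for it or enters its mean. The cause of the other changes was not tested. In their deviations from the group means, same-numbered arrays of different groups correlated between −0.199 and 0.102, and differently numbered ones between −0.192 and 0.254. Such values cannot show whether the replicate numbers pair cultures, since a weak shared effect would look the same. With a replicate block, 10 members were called with STS, 17 with OXP and 17 with STS+OXP. There were 14 in STS+OXP against STS, 0 in STS+OXP against OXP and 1 in the interaction. Signal over background limits Timm8a2 and Tomm20l, for which no change could be measured.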
